A study of Homo sapiens with 16 samples.

Results

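Camptothecin (CPT) was given to U2OS cells at 5 doses, and the 6 libraries described here, of 16 in the series, are those of cells given DMSO, the solvent control, and of cells given CPT at 0.5, 2, 5, 10 or 20 µM. They were picked by their labels alone, with 1 library per condition. U2OS is an established human osteosarcoma line. The cells were grown in McCoy's 5a medium with serum, plated in dishes and left overnight before 6 h with the compound, and all 6 libraries share that handling. Total RNA was made into Illumina libraries, which their titles label mRNA. The authors deposited a level per gene in FPKM, which counts fragments per unit of transcript length and of library size. The other 10 libraries are 5 each of cells given T4 or T5 at the same doses, compounds that the series presents as modulators of alternative polyadenylation. They enter only where CPT is set against them at matched doses. No condition has a replicate, and whether the libraries stem from independent cultures is not stated. The p-values therefore reflect how far unreplicated libraries scatter about a fitted line or mean. That scatter may be technical, and about the mean of the CPT libraries it also holds the differences between doses.

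Camptothecin is a plant alkaloid that traps DNA topoisomerase I (TOP1) on DNA after the enzyme has cut a single strand. TOP1 works with RNA polymerase II and with replication forks to release the torsion that builds up in DNA as strands are unwound. Trapped enzyme stalls elongating polymerase, and a fork that runs into it leaves a double-strand break, which activates the ATM and ATR checkpoint kinases and stabilises p53. In mouse neurons, TOP1 inhibitors are known to lower the transcripts of very long genes.

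Of 25270 genes in the matrix, 10600 with a mean of at least 1 FPKM over the 16 libraries were tested, and 5350 were listed at 0 in all 6 libraries. Relative depth, read from the steps between low values, lay between 0.696 and 0.828 of DMSO in the CPT libraries. The median of log2(FPKM + 1) over the tested genes was lower than in DMSO by 0.08 at 0.5 µM and by 0.41 at 10 µM, so that results which depend on the scaling of whole libraries are marked as such. In bulk RNA, fewer cells of a type and less RNA per cell cannot be told apart. Of 9 bone and osteoblast markers, 5 were at 1 FPKM or more in DMSO, led by the collagen COL1A1, and their summed level was 680 to 1011 FPKM in CPT libraries against 535 FPKM in DMSO, nearly all from COL1A1 and SPARC. The osteoblast factor RUNX2 had 0.644 to 1.13 FPKM with CPT against 2.86 FPKM in DMSO and the phosphatase gene ALPL 1.61 to 1.97 FPKM against 2.54 FPKM, while COL1A2, BGLAP, SP7 and IBSP stayed under 1 FPKM throughout. The sum of 8 epithelial markers was 9.58 to 17.0 FPKM with CPT against 5.51 FPKM in DMSO, mostly from the tight junction gene CLDN4, and that of 8 blood markers was 0.260 to 2.69 FPKM with CPT against 0.204 FPKM in DMSO, mostly from CD14, with HBB listed at 0. Their part in the results was not tested. TOP1 itself, the target of the drug, had 31.03 FPKM in DMSO and 23.6, 12.9, 12.1, 13.4 and 14.2 FPKM from 0.5 to 20 µM. Its transcript was thus lower than in DMSO at each dose and lowest in the middle of the range, and it fell by 1.13 ± 0.34 (adjusted p = 0.0384) over the dose trend defined below, a call that median centring and quantile normalization of the libraries each end (adjusted p = 0.0922 and 0.0602).

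Most of the response was in place at 2 µM. At 0.5 µM, 260 genes were at least 2-fold higher than in DMSO and 722 at least 2-fold lower on the log2(FPKM + 1) scale (2.45% and 6.81% of those tested), while at 2 µM the counts were 608 and 1867 (5.74% and 17.6%). They then changed little, with 591 and 2231 at 5 µM (5.58% and 21.0%), 576 and 2258 at 10 µM (5.43% and 21.3%) and 649 and 2228 at 20 µM (6.12% and 21.0%). Between neighbouring doses the change shrank. Going up to 2 µM, 50 genes stood 2-fold or more above their level at 0.5 µM and 599 stood as far below it (0.472% and 5.65%). At 5 µM, 9 were higher and 48 lower than at 2 µM (0.0849% and 0.453%). At 10 µM, 12 were higher and 10 lower than at 5 µM (0.113% and 0.0943%). At 20 µM, 9 were higher and 10 lower than at 10 µM (0.0849% and 0.0943%). From 5 µM upward the libraries were nearly alike, and each of these counts compares single libraries, with no replicate check.

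**Figure D1:**
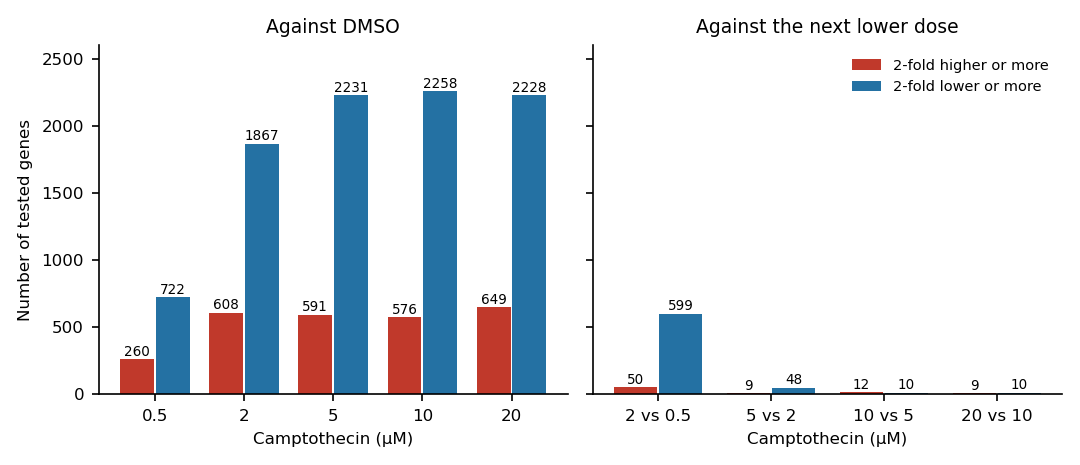
Number of genes, of 10600 tested, at least 2-fold higher (red) or lower (blue) on the log2(FPKM + 1) scale in each CPT library. The left panel sets each dose against DMSO and the right panel sets it against the next lower dose, where the counts drop from 599 lower genes at 2 µM to 10 at 20 µM.

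Single genes followed a few distinct courses over the dose range. A first set of 145 genes was at least 2-fold above DMSO at all 5 doses, and 457 were at least 2-fold below it at all 5. Another 632 genes were within 1.2-fold of DMSO at 0.5 µM but at least 2-fold lower at 20 µM, and 96 were within 1.2-fold at 0.5 µM but at least 2-fold higher at 20 µM. In 66 genes the direction turned round, with a level at least 1.5-fold above DMSO at 0.5 µM and at least 1.5-fold below it at 20 µM, and only 1 gene did the opposite. In 197 genes a 2-fold lower level at 0.5 µM was followed by a partial return, to at least 1.5 times that level at 20 µM. A single line over dose cannot follow all of these courses, so 3 tests were made: a trend from 0 to 20 µM over 6 libraries, a trend over the 5 CPT libraries alone from 0.5 to 20 µM, and the mean of the 5 CPT libraries minus DMSO, called the dose average here. The first trend runs along log2(1 + dose/0.5 µM), the second along log2(dose), and both are given as the change over their whole range. All changes with ± are log2(FPKM + 1) with standard errors from limma, and p-values are adjusted over the 10600 genes by Benjamini-Hochberg.

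Over the trend from DMSO, 1899 genes rose and 2739 fell (17.9% and 25.8%), with a median of -0.14. Among the CPT libraries alone, 2232 rose and 2897 fell with dose (21.1% and 27.3%), with a median of -0.07. In the dose average, 542 genes were higher and 904 lower than in DMSO (5.11% and 8.53%), with a median of -0.10. These splits depend on scaling: median centring of the libraries shifts all genes by 0.45, 0.35 and 0.31 and gives 3572 rising and 1643 falling, 4111 and 1973, and 491 higher and 447 lower. Quantile normalization, which moves each gene by its own amount (median shift 0.38, 0.29 and 0.27), gives 2341 and 1915, 3011 and 2443, and 1119 and 921. Without the 10 µM library, 1 gene rose and 0 fell in the trend by limma, with 1782 and 2666 at an unadjusted p under 0.05, and among CPT libraries the counts were likewise 1 and 0, with 1870 and 2702 unadjusted. Of 199 gene results recomputed in this way, 152 lost their call without that library and none reversed. The 199 include 20 from the comparison of CPT with T4 and T5, which uses the 15 treated libraries, and some that were not called at first. The share of lost calls in the tests on the CPT series is therefore higher than these counts show. When the spread was pooled over all 16 libraries, 3263 rose and 3640 fell, of which 1806 and 2410 had been called before. The dose average gave 4 higher and 38 lower genes without the 5 µM library, with 1352 and 1755 at an unadjusted p under 0.05, and 2938 and 3582 without the 0.5 µM library.

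The course of a transcript went with the length of its gene. Gene spans, from first to last annotated base, came from GENCODE release 29 and were found for 10458 of the tested genes (98.7%), of which 10123 are protein-coding. The 833 genes spanning under 5 kb had a median log2 ratio to DMSO of 0.30 at 0.5 µM and 0.62 at 20 µM. Genes of 10 to 30 kb (n = 2924) were at 0.19 and 0.11 at these doses. Above that, medians were below 0: genes of 60 to 120 kb (n = 1634) stood at -0.30 at 0.5 µM, -0.73 at 2 µM and -0.74 at 20 µM. The median was thus highest in the shortest genes and lower in each longer class up to 120 kb at every dose.

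Length also went with the dose at which the level was lowest. In genes of 30 to 60 kb (n = 2156), the share at least 2-fold below DMSO was 1.67% at 0.5 µM and 24.1% at 20 µM. In the 181 genes over 400 kb it was 54.1% at 0.5 µM and 33.7% at 20 µM, with median log2 ratios of -1.1, -0.87, -0.70, -0.61 and -0.57 over the rising doses. The longest genes were thus lowest at the lowest dose and came back in part as the dose went up. Among the CPT libraries, 120 of these 181 genes rose with dose and 9 fell (66.3% and 4.97%, against 21.1% and 27.3% of all genes), while of the 30 to 60 kb genes 13.2% rose and 40.2% fell. In the dose average, 60 of the 181 were lower and 0 higher than in DMSO, against 8.53% and 5.11% of all genes. The median of the longest class was -0.97 at 0.5 µM and -0.23 at 20 µM under quantile normalization, so that a partial return is seen there too. Over the same doses of T4 the median of genes over 400 kb stayed between -0.13 and 0.10, and over those of T5 between -0.21 and 0.09, as deposited. Under quantile normalization these medians rose with dose as well, though from above 0. With T4 they went from 0.04 at 0.5 µM to 0.63 at 20 µM, and with T5 from 0.08 to 0.55. A rise with dose in the longest genes was thus not particular to CPT under that scaling. How the span classes differ in other properties was not tested.

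**Figure D2:**
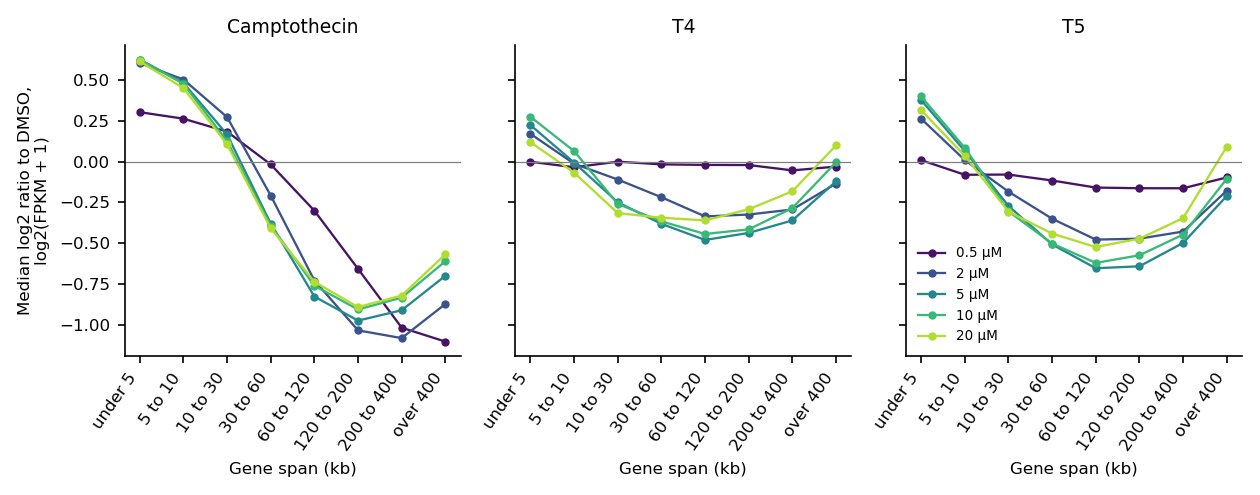
Median log2 ratio to DMSO, log2(FPKM + 1), of protein-coding genes in 8 classes of gene span, for CPT, T4 and T5, with 1 line per dose. With CPT the genes over 400 kb are lowest at 0.5 µM (-1.1), and the genes under 5 kb are above 0 at each dose.

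Of 47 very long genes listed for this purpose, 36 were tested, with a median span of 668 kb. Among the CPT libraries 28 rose with dose and 2 fell, against 21.1% and 27.3% of all genes, with a median of 0.78 against -0.07. In the dose average 16 were lower and 0 higher than DMSO, against 8.53% and 5.11% of all genes. Under median centring and quantile normalization, 30 rose with dose in each case, and 6 and 8 were lower than DMSO. PRKCA, which encodes protein kinase C alpha, had 15.9 FPKM in DMSO and 3.84, 7.11, 9.82, 11.2 and 11.1 FPKM at the 5 doses in turn. Its level was lowest at 0.5 µM and came back in part, a rise of 1.39 ± 0.20 (adjusted p = 0.0109) among the CPT libraries. APBB2, an adaptor that binds the amyloid precursor protein, had 19.9 FPKM in DMSO and 2.25, 3.697, 5.33, 6.996 and 7.48 FPKM over the rising doses and rose by 1.46 ± 0.15 (adjusted p = 0.0109). TCF12, a basic helix-loop-helix transcription factor, had 31.9 FPKM in DMSO and 5.91, 8.69, 11.6, 12.3 and 12.7 FPKM from 0.5 to 20 µM. It too was lowest at 0.5 µM and rose by 1.04 ± 0.16 (adjusted p = 0.0109) with further dose. TRIO, a guanine nucleotide exchange factor, rose by 1.09 ± 0.14 (adjusted p = 0.0109) and the receptor phosphatase gene PTPRK by 1.15 ± 0.17 (adjusted p = 0.0109).

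Some other long genes stayed low. GPHN, which encodes gephyrin, a scaffold for inhibitory neurotransmitter receptors that also makes molybdenum cofactor, had 20.7 FPKM in DMSO and 0.659, 0.771, 0.816, 0.957 and 1.07 FPKM at the 5 doses in turn. All 5 CPT libraries lay far below DMSO, with a dose average lower by 3.55 ± 0.17 (adjusted p = 0.00155). EXT1, a glycosyltransferase that polymerises heparan sulfate, had 59.7 FPKM in DMSO and 6.88, 3.22, 4.85, 5.82 and 5.92 FPKM over the rising doses, with its lowest level at 2 µM. It was lower than DMSO by 3.29 ± 0.34 (adjusted p = 0.0116). The transcription factor FOXP1 had 5.39 FPKM in DMSO and 0.658, 0.321, 0.702, 0.523 and 0.473 FPKM from 0.5 to 20 µM and was lower by 2.06 ± 0.16 (adjusted p = 0.00565). AUTS2 went on falling over the CPT libraries, by 1.26 ± 0.21 (adjusted p = 0.0116). COL4A1, a basement membrane collagen, was above DMSO at each dose, with 105 FPKM in DMSO and 111, 152, 167, 180.0 and 186 FPKM at the 5 doses in turn, and rose over the CPT libraries by 0.73 ± 0.11 (adjusted p = 0.0109).

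Some genes broke this pattern, and the 4 named here were chosen after their values were seen. Of protein-coding genes over 120 kb, TSC22D1 and FAM46A were at least 2-fold above DMSO at all 5 doses. TSC22D1, a leucine zipper protein, had 5.84 FPKM in DMSO and 13.2, 14.1, 13.02, 14.3 and 16.4 FPKM over the rising doses. FAM46A had 1.25 FPKM in DMSO and 8.19, 8.99, 6.71, 5.96 and 6.498 FPKM from 0.5 to 20 µM. For both, the annotated span may be longer than the transcript that U2OS cells use, which was not tested. At the other end, 7 genes under 10 kb were lower by at least 1.5 on the log2 scale from 2 µM on, among them HNRNPDL, a regulator of mRNA splicing, with 52.5 FPKM in DMSO and 10.6, 11.8, 15.4, 17.2 and 16.6 FPKM at the 5 doses in turn. HNRNPDL was lowest at 0.5 µM. TEFM, the elongation factor of mitochondrial transcription, had 7.42 FPKM in DMSO and 4.98, 1.75, 1.31, 1.02 and 1.08 FPKM over the rising doses, lower at each dose up to 10 µM. The 151 single-exon genes had a median log2 ratio of 0.51 at 0.5 µM and 0.41 at 20 µM, with 37 of them at least 2-fold higher and 9 at least 2-fold lower at 20 µM.

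Targets of p53 took 2 distinct courses. Of 21 targets that act in arrest and stress, 10 were higher than DMSO in the dose average and 0 lower, against 5.11% and 8.53% of all genes. Their median was 1.05 against -0.10 over all genes, and both other scalings also gave 10 and 0. CDKN1A, the p21 inhibitor of cyclin-dependent kinases, had 31.6 FPKM in DMSO and 128, 142, 142, 139 and 137 FPKM from 0.5 to 20 µM. The CPT libraries lay close together and well above DMSO, by 2.08 ± 0.10 (adjusted p = 0.00161). BTG2, an antiproliferative adaptor of the CCR4-NOT deadenylase, had 4.45 FPKM in DMSO and 41.8, 60.3, 59.3, 58.5 and 52.7 FPKM at the 5 doses in turn and was higher by 3.34 ± 0.22 (adjusted p = 0.00428). The stress cytokine GDF15, with 0.249 FPKM in DMSO and 6.13, 6.59, 6.03, 4.37 and 6.09 FPKM over the rising doses, was higher by 2.44 ± 0.24 (adjusted p = 0.0103), and the kinase PLK3 by 2.27 ± 0.23 (adjusted p = 0.0108). CDKN1A and GDF15 were near their level at 20 µM already at 0.5 µM, and BTG2 peaked at 2 µM. FDXR, an enzyme of mitochondrial electron transfer, was higher by 1.86 ± 0.20 (adjusted p = 0.0117), SESN2, a sensor of leucine that restrains mTORC1, by 1.55 ± 0.18 (adjusted p = 0.0135), and TRIAP1 by 1.46 ± 0.18 (adjusted p = 0.0162). SERTAD1, a cofactor of E2F and CDK4, was, with GADD45A, a member that rose among the CPT libraries, while 9 of the 21 fell. It had 16.9 FPKM in DMSO and 55.2, 101, 109.7, 119.6 and 126 FPKM from 0.5 to 20 µM, a rise of 1.14 ± 0.20 (adjusted p = 0.0128).

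Among the 9 tested targets that act in apoptosis, 4 were higher in the dose average and 0 lower, against 5.11% and 8.53% of all genes, and 3 were higher under either other scaling. BBC3, which encodes the BH3-only killer PUMA, had 1.62 FPKM in DMSO and 12.6, 13.4, 9.55, 9.26 and 9.74 FPKM at the 5 doses in turn and was higher by 2.17 ± 0.25 (adjusted p = 0.0135). PMAIP1, the BH3-only protein NOXA, had 23.8 FPKM in DMSO and 69.4, 123, 114, 115 and 117 FPKM over the rising doses and was higher by 2.1 ± 0.31 (adjusted p = 0.0213). Both were above DMSO at all doses, BBC3 with its highest values at the 2 lowest doses and PMAIP1 from 2 µM on. BAX, the pore former, was higher by 0.53 ± 0.11 (adjusted p = 0.0351), and the adaptor gene PIDD1 by 0.80 ± 0.17 (adjusted p = 0.0383). The call of BAX was lost under both other scalings.

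Other p53 targets peaked at 0.5 µM. MDM2, the ubiquitin ligase that degrades p53, had 13.2 FPKM in DMSO and 34.1, 11.6, 6.31, 5.76 and 6.299 FPKM from 0.5 to 20 µM. Only the 0.5 µM library was above DMSO, and the level fell by 2.38 ± 0.43 (adjusted p = 0.0129) among the CPT libraries. The death receptor FAS had 3.497 FPKM in DMSO and 17.8, 5.16, 2.298, 1.78 and 2.24 FPKM at the 5 doses in turn and fell by 2.72 ± 0.48 (adjusted p = 0.0125), and PPM1D, the phosphatase WIP1 that shuts off the damage response, had 10.5 FPKM in DMSO and 28.1, 16.8, 8.61, 6.42 and 7.15 FPKM over the rising doses and fell by 2.07 ± 0.28 (adjusted p = 0.0109). SESN1, a relative of SESN2, had 2.92 FPKM in DMSO and 15.2, 12.4, 6.36, 4.65 and 5.097 FPKM from 0.5 to 20 µM. It stayed above DMSO at all doses while it fell by 1.67 ± 0.27 (adjusted p = 0.0112) with dose. Of 6 repair genes that p53 induces, 5 fell among the CPT libraries and 0 rose, against 27.3% and 21.1% of all genes. Their median was -1.37, and with either other scaling 5 fell and 1 rose. XPC, which recognises damage in nucleotide excision repair, had 8.26 FPKM in DMSO and 16.2, 10.7, 6.06, 5.18 and 4.99 FPKM at the 5 doses in turn, and POLH, the translesion polymerase eta, had 3.98 FPKM in DMSO and 6.72, 1.995, 1.14, 1.06 and 1.13 FPKM over the rising doses. Both were above DMSO at 0.5 µM and below it from 5 µM on, with falls of 1.66 ± 0.20 (adjusted p = 0.0109) and 1.89 ± 0.39 (adjusted p = 0.0165). RRM2B, a subunit of the p53-inducible ribonucleotide reductase, fell by 1.4 ± 0.27 (adjusted p = 0.0143), and the damage sensor DDB2 by 0.95 ± 0.18 (adjusted p = 0.0137). The remaining member, the helicase gene ASCC3, spans 373 kb and had 12.3 FPKM in DMSO and 3.02, 4.41, 4.35, 4.73 and 4.77 FPKM from 0.5 to 20 µM, lowest at 0.5 µM, and was lower than DMSO by 1.35 ± 0.25 (adjusted p = 0.0308) in the dose average, a call lost under both other scalings.

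**Figure D3:**
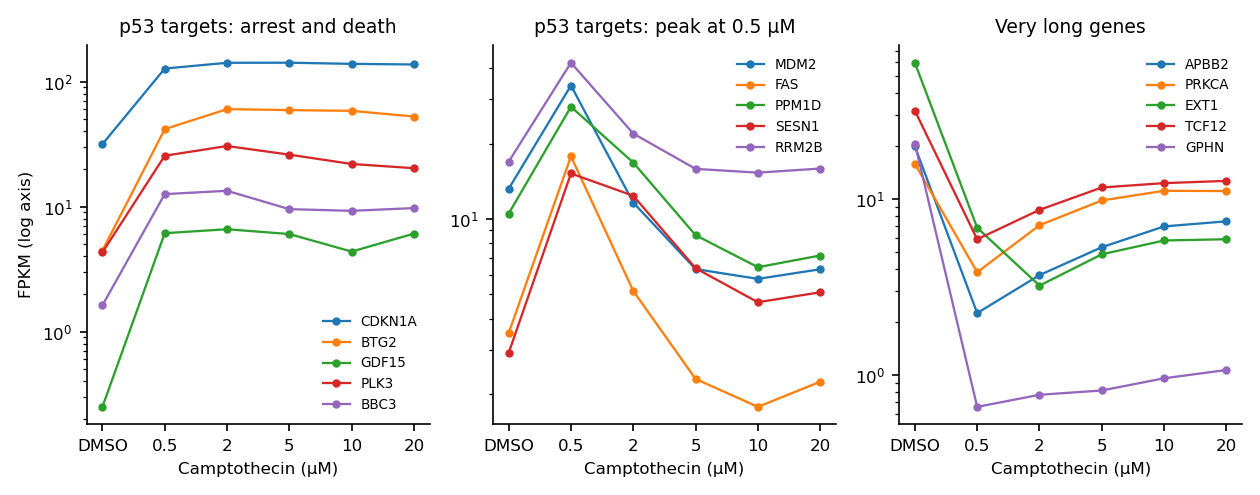
FPKM on a log axis in DMSO and in the 5 CPT libraries, 1 line per gene. p53 targets in the left panel stay above DMSO from 0.5 µM on, those in the middle panel peak at 0.5 µM, and the very long genes in the right panel drop at 0.5 µM, after which APBB2, PRKCA and TCF12 rise.

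RFWD2, which encodes COP1, another ubiquitin ligase for p53, spans 263 kb and had 16.2 FPKM in DMSO and 2.496, 1.72, 2.26, 2.69 and 2.56 FPKM at the 5 doses in turn. It was far below DMSO at every dose, by 2.37 ± 0.22 (adjusted p = 0.00981). USP7, the deubiquitinase that stabilises MDM2 and p53, fell over the trend by 2.27 ± 0.47 (adjusted p = 0.0148).

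Of 19 tested genes that repair TOP1 lesions, 1 rose and 7 fell over the trend, with a median of -0.92 against -0.14 over all genes, of which 17.9% rose and 25.8% fell. With median centring 2 rose and 5 fell, and with quantile normalization 1 rose and 4 fell. TDP1, the phosphodiesterase that cleaves TOP1 from a DNA end, had 4.93 FPKM in DMSO and 1.86, 0.895, 0.9104, 0.955 and 1.06 FPKM over the rising doses. Its values from 2 µM on were near 1 FPKM, and its dose average was lower than DMSO by 1.49 ± 0.25 (adjusted p = 0.0264). RAD50, a subunit of the MRE11 complex that resects breaks, had 5.85 FPKM in DMSO and 1.55, 1.51, 1.81, 2.17 and 2.15 FPKM from 0.5 to 20 µM. It was lower than DMSO by 1.28 ± 0.20 (adjusted p = 0.0238), and its partner NBN fell over the trend by 1.9 ± 0.36 (adjusted p = 0.0131). SPRTN, a protease for proteins crosslinked to DNA, had 5.05 FPKM in DMSO and 7.26, 3.83, 2.11, 1.75 and 1.68 FPKM at the 5 doses in turn and fell by 1.61 ± 0.33 (adjusted p = 0.0144). APTX, which repairs abortive ligation ends, fell by 1.45 ± 0.33 (adjusted p = 0.0173). The nuclease genes MUS81, EME1 and SLX4 fell by 1.05 ± 0.19, 1.16 ± 0.19 and 1.05 ± 0.23 (adjusted p = 0.0119, 0.0106 and 0.0164). PARP1, an enzyme that senses strand breaks, had 63.7 FPKM in DMSO and 62.1, 68.4, 71.9, 74.5 and 74.5 FPKM over the rising doses. It was level with DMSO at 0.5 µM and rose by 0.27 ± 0.08 (adjusted p = 0.0334) among the CPT libraries. Under other scalings the calls of RAD50 and SLX4 were lost with both, and those of MUS81 and PARP1 with quantile normalization, where the value of PARP1 was 0.0015.

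Among the 6 topoisomerase genes, 3 fell over the trend and 0 rose, against 25.8% and 17.9% of all genes. With median centring 1 fell and 1 rose. TOP3A, which resolves recombination intermediates, had 8.21 FPKM in DMSO and 7.54, 4.04, 2.36, 2.11 and 2.09 FPKM from 0.5 to 20 µM and fell by 1.83 ± 0.27 (adjusted p = 0.0105). TOP2A, needed for chromosome segregation, fell by 0.65 ± 0.20 (adjusted p = 0.0387), but not past the threshold with median centring, at -0.20. TOP2B, the form active in cells that do not divide, had 29.5 FPKM in DMSO and 20.6, 21.3, 23.6, 25.1 and 25.1 FPKM at the 5 doses in turn and rose among the CPT libraries by 0.31 ± 0.09 (adjusted p = 0.0391), from a low at 0.5 µM.

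In the DNA damage checkpoint list, 2 of 22 genes rose and 11 fell over the trend, against 17.9% and 25.8% of all genes. The median was -0.95, and under median centring 4 rose and 7 fell. Under quantile normalization 3 rose and 5 fell, where 2341 and 1915 of all 10600 genes did. TIPIN, part of the fork protection complex, had 23.5 FPKM in DMSO and 24.99, 13.98, 7.73, 6.302 and 5.72 FPKM over the rising doses. It was level with DMSO at 0.5 µM and fell by 2.22 ± 0.26 (adjusted p = 0.0105). CLSPN, the mediator that couples ATR to CHK1, had 8.23 FPKM in DMSO and 8.44, 2.44, 1.84, 1.92 and 2.05 FPKM from 0.5 to 20 µM and fell by 1.93 ± 0.45 (adjusted p = 0.0184). The mediator gene TP53BP1 fell by 1.87 ± 0.45 (adjusted p = 0.0207) and the kinase gene CHEK1 by 1.26 ± 0.33 (adjusted p = 0.0249). ATR, with 3.59 FPKM in DMSO and 1.84, 0.806, 0.955, 0.999 and 1.104 FPKM at the 5 doses in turn, was lower than DMSO in the dose average by 1.12 ± 0.25 (adjusted p = 0.0403). H2AFX, whose histone is phosphorylated around breaks, went the other way, with 42.5 FPKM in DMSO and 59.2, 84.9, 96.1, 98.7 and 128 FPKM over the rising doses and a rise of 1.44 ± 0.17 (adjusted p = 0.0105) that ran through all doses. TIMELESS, the partner of TIPIN, rose by 0.46 ± 0.14 (adjusted p = 0.0407). The calls of CHEK1 under quantile normalization and of ATR under median centring were lost.

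Of 23 tested Fanconi anaemia and homologous recombination genes, 13 fell over the trend and 0 rose, against 25.8% and 17.9% of all genes. The list median was -1.19. The other scalings each gave 9 falling and 1 rising. Their median span was 65.0 kb, against 31.2 kb over all tested genes with a span. BLM, a helicase that dissolves recombination intermediates, had 10.03 FPKM in DMSO and 7.06, 1.93, 1.02, 1.06 and 1.21 FPKM from 0.5 to 20 µM and fell by 2.6 ± 0.49 (adjusted p = 0.0129). BRCA1 had 9.82 FPKM in DMSO and 3.05, 1.48, 1.78, 2.03 and 1.99 FPKM at the 5 doses in turn, BRIP1, its helicase partner, had 10.4 FPKM in DMSO and 3.01, 1.19, 1.38, 1.53 and 1.52 FPKM over the rising doses, and both were lower than DMSO in the dose average, by 1.84 ± 0.28 (adjusted p = 0.0221) and 2.1 ± 0.33 (adjusted p = 0.0246). BARD1, the partner of BRCA1, fell over the trend by 2.32 ± 0.52 (adjusted p = 0.0173). FANCC, which spans 328 kb, had 8.12 FPKM in DMSO and 1.46, 1.09, 1.801, 1.69 and 1.704 FPKM from 0.5 to 20 µM, with no order between the doses, and was lower by 1.85 ± 0.20 (adjusted p = 0.0123).

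Most immediate early genes rose with dose: of 22 tested, 16 rose and 0 fell over the trend from DMSO, against 17.9% and 25.8% of all genes. Immediate early genes encode short-lived regulators switched on by growth factors and stress without new protein synthesis. Promoter sequence upstream of the start site is shown for 3 of them and for 2 chemokine genes, because they are textbook early and NF-kB target genes whose proximal promoters hold known kinds of site. The sequences are from RefSeq (GRCh38.p14), 150 bases ending at the base before the start site, 5′ to 3′ on the gene's strand. Capitals mark matches on either strand to TGACG, the core of the cAMP response element, TGACTCA, the AP-1 site, GGAATTTCC, an NF-kB site, TATAAA, the TATA box, or the CArG box that serum response factor binds.
EGR1, chr5:138465329-138465478 (plus strand): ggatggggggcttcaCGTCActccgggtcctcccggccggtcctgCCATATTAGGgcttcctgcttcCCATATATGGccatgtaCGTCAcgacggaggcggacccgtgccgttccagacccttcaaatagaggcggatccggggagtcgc
FOS, chr14:75278678-75278827 (plus strand): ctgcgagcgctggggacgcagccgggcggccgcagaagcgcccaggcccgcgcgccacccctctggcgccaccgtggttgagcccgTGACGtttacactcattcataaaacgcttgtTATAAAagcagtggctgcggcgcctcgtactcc
JUNB, chr19:12791336-12791485 (plus strand): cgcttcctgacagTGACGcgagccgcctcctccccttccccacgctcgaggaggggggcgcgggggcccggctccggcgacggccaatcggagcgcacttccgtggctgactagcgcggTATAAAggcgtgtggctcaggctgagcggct
CXCL8, chr4:73740419-73740568 (plus strand): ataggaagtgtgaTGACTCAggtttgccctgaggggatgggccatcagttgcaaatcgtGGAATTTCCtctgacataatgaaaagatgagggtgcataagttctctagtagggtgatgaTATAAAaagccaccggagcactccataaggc
CXCL3, chr4:74038690-74038839 (minus strand): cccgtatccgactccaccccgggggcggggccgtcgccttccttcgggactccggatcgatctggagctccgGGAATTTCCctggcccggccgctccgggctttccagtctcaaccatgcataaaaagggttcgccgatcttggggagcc
The EGR1 window held 2 CArG boxes, at 105 and 83 bases upstream, and TGACG on the opposite strand at 135 and 66 bases. FOS and JUNB each held TGACG and a TATA box. CXCL8 held the AP-1 site at 137 bases, the NF-kB site at 91 bases and a TATA box at 31 bases upstream, and CXCL3 held the NF-kB site at 78 bases. No match shown overlaps another. Over 250 upstream bases of 27305 RefSeq promoters, 21.7% held TGACG, 4.16% TGACTCA, 0.428% GGAATTTCC, 11.1% TATAAA and 1.14% a CArG box. Over the 7977 promoters matched to tested genes the shares were 31.2%, 2.56%, 0.364%, 4.81% and 0.965% in the same order. Of 22 tested immediate early genes, 16 matched the table, and 9 held TGACG and 2 a CArG box. Of 17 tested NF-kB targets and chemokines, 13 matched, and 5 held GGAATTTCC, though some of these genes are textbook NF-kB targets because of such sites. A match describes the letters and does not show a site in use.

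FOS, the leucine zipper partner of JUN in AP-1, had 1.13 FPKM in DMSO and 4.26, 13.8, 20.6, 26.7 and 33.5 FPKM at the 5 doses in turn, higher at each dose than at the one before. Of the 22 immediate early genes, 14 rose and 1 fell among the CPT libraries alone, where DMSO plays no part, with a median of 1.07 against -0.07 over all genes. FOS rose by 2.68 ± 0.25 (adjusted p = 0.0109), FOSB, with 0.0691 FPKM in DMSO and 1.195, 3.65, 6.45, 9.47 and 12.4 FPKM over the rising doses, by 2.65 ± 0.14 (adjusted p = 0.0109) and JUNB, with 4.42 FPKM in DMSO and 14.3, 39.05, 63.3, 84.03 and 102 FPKM from 0.5 to 20 µM, by 2.78 ± 0.21 (adjusted p = 0.0109). EGR1, a zinc finger factor, had 13.8 FPKM in DMSO and 12.97, 32.3, 49.4, 57.5 and 56.6 FPKM at the 5 doses in turn. Unlike FOS it was at its DMSO level at 0.5 µM and rose by 2.12 ± 0.31 (adjusted p = 0.0109) from there. JUN, IER2 and the synaptic gene ARC had 82.1, 82.8 and 75.5 FPKM at 20 µM, against 26.8, 16.7 and 7.201 FPKM in DMSO. ZFP36, which speeds decay of AU-rich mRNAs, rose by 1.5 ± 0.16 (adjusted p = 0.0109). ATF3 was at a plateau from 2 µM on, with 4.64 FPKM in DMSO and 23.2, 34.9, 34.8, 32.7 and 36.1 FPKM over the rising doses, and was higher than DMSO in the dose average by 2.55 ± 0.25 (adjusted p = 0.0103). FOSL2 was the 1 member that fell, by 0.69 ± 0.14 (adjusted p = 0.0163). The serum response targets CYR61 and CTGF passed neither trend test, with values of 0.21 ± 0.14 (adjusted p = 0.262) and 0.21 ± 0.10 (adjusted p = 0.144) over the trend, though with median centring both rose. The call of FOSL2 was lost with median centring. Of the DUSP phosphatases, which switch off MAP kinases, 2 of 8 rose over the trend and 1 fell, near the 17.9% and 25.8% of all genes. DUSP2 had 3.33 FPKM in DMSO and 9.04, 18.8, 22.5, 22.95 and 21.3 FPKM from 0.5 to 20 µM and DUSP8 had 1.83 FPKM in DMSO and 2.08, 3.22, 4.27, 4.92 and 5.47 FPKM at the 5 doses in turn, both higher than DMSO at each dose, with rises of 2.28 ± 0.52 (adjusted p = 0.0177) and 1.29 ± 0.18 (adjusted p = 0.0105). DUSP16 fell by 1.31 ± 0.22 (adjusted p = 0.011).

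NF-kB targets also split. In the dose average, 7 of 17 were higher and 0 lower, against 5.11% and 8.53% of all genes, with a median of 0.88. CXCL8 (interleukin 8, which recruits neutrophils) had 1.601 FPKM in DMSO and 8.65, 41.2, 67.6, 59.5 and 48.97 FPKM over the rising doses, with its highest level at 5 µM, and rose by 2.43 ± 0.71 (adjusted p = 0.0385) among the CPT libraries. CXCL3 had 0.112 FPKM in DMSO and 0.607, 4.66, 8.93, 10.5 and 11.7 FPKM from 0.5 to 20 µM and rose by 3.01 ± 0.42 (adjusted p = 0.0109). CCL20 had 2.71 FPKM in DMSO and 14.5, 50.1, 51.5, 43.02 and 40.9 FPKM at the 5 doses in turn and was higher than DMSO in the dose average by 3.35 ± 0.66 (adjusted p = 0.0327). NFKBIA, the inhibitor that NF-kB induces to hold itself in check, was higher by 1.95 ± 0.45 (adjusted p = 0.043), and TNFAIP3, the feedback enzyme A20, by 2.05 ± 0.28 (adjusted p = 0.0185). The subunit genes behaved otherwise. NFKB1, with 11.98 FPKM in DMSO and 8.51, 4.54, 2.52, 2.42 and 2.56 FPKM over the rising doses, fell over the trend by 2.06 ± 0.32 (adjusted p = 0.0105). RELB, with 4.53 FPKM in DMSO and 11.6, 13.3, 7.42, 4.87 and 5.52 FPKM from 0.5 to 20 µM, was highest at 2 µM and fell among the CPT libraries by 1.25 ± 0.34 (adjusted p = 0.0308), a call lost with quantile normalization, and REL fell by 1.47 ± 0.19 (adjusted p = 0.0109) and NFKB2 by 1.36 ± 0.27 (adjusted p = 0.0153). IRF1, a transcription factor of the interferon response that NF-kB also induces, had 1.35 FPKM in DMSO and 6.74, 10.4, 10.2, 10.6 and 12.02 FPKM at the 5 doses in turn and was higher than DMSO by 2.2 ± 0.30 (adjusted p = 0.018).

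**Figure D4:**
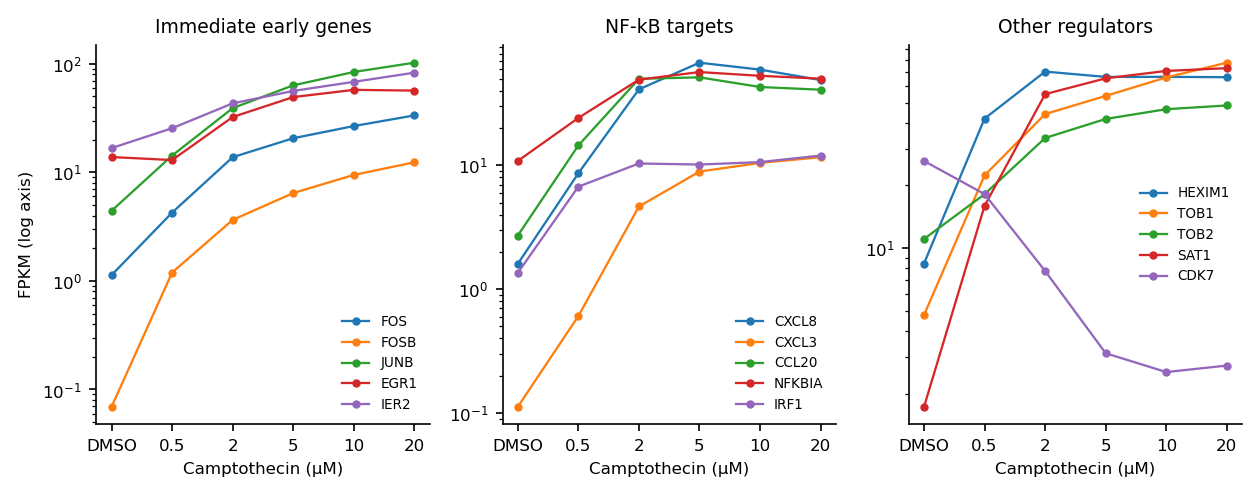
FPKM on a log axis in DMSO and in the 5 CPT libraries, 1 line per gene. Immediate early genes in the left panel climb up to 10 or 20 µM. In the middle panel CXCL3 climbs up to 20 µM, while CXCL8 and CCL20 are highest at 5 µM and lower after it. In the right panel CDK7 drops while HEXIM1, TOB1, TOB2 and SAT1 climb.

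The BTG and TOB family, adaptors that recruit the CCR4-NOT deadenylase to mRNAs, was listed after its values had been seen. TOB1 had 4.77 FPKM in DMSO and 22.4, 44.04, 53.9, 66.03 and 77.7 FPKM over the rising doses, higher at each step, and rose over the trend by 3.36 ± 0.62 (adjusted p = 0.0122). TOB2, with 11.1 FPKM in DMSO and 18.2, 33.8, 41.7, 46.5 and 48.4 FPKM from 0.5 to 20 µM, rose by 2.05 ± 0.29 (adjusted p = 0.0105), BTG1, with 1.54 FPKM in DMSO and 5.89, 9.16, 8.29, 8.13 and 8.75 FPKM at the 5 doses in turn, was higher in the dose average by 1.82 ± 0.25 (adjusted p = 0.0192), and BTG3 passed neither test against DMSO. By the dose average, 3 of the 5 tested members were higher and 0 lower, against 5.11% and 8.53% of all genes. Both other scalings gave the same counts for the family. SAT1, which acetylates spermidine and spermine for export or breakdown, had 1.73 FPKM in DMSO and 15.97, 54.9, 65.4, 70.96 and 73.2 FPKM over the rising doses, a climb that slowed after 2 µM. It was higher than DMSO by 4.22 ± 0.80 (adjusted p = 0.0317). Of the 9 polyamine genes, 4 rose and 2 fell over the trend, against 17.9% and 25.8% of all genes. OAZ1, the antizyme that degrades ornithine decarboxylase, rose by 0.71 ± 0.19 (adjusted p = 0.0283). AMD1, the decarboxylase that supplies the aminopropyl donor, fell by 1.27 ± 0.34 (adjusted p = 0.026). Under quantile normalization 2 polyamine genes rose and 3 fell, and the call of OAZ1 was lost, as was that of AMD1 with median centring.

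HEXIM1, which with 7SK RNA holds the elongation kinase P-TEFb inactive, had 8.44 FPKM in DMSO and 41.9, 70.5, 66.4, 66.5 and 66.2 FPKM from 0.5 to 20 µM and was higher than DMSO in the dose average by 2.72 ± 0.28 (adjusted p = 0.0117). CDK9, the kinase of P-TEFb, had 13.4 FPKM in DMSO and 23.2, 38.7, 39.7, 37.5 and 35.5 FPKM at the 5 doses in turn and rose over the trend by 1.27 ± 0.38 (adjusted p = 0.0376). Both were near their top level at 2 µM. Of the 27 tested genes of the elongation list, CDK9 was the 1 that rose over the trend and 15 fell, against 17.9% and 25.8% of all genes, with a median of -0.99, and 4 rose and 11 fell with median centring. CDK12 and CDK13, which phosphorylate the polymerase within genes, had 9.9004 FPKM in DMSO and 7.67, 2.37, 1.35, 1.42 and 1.66 FPKM over the rising doses and 9.41 FPKM in DMSO and 6.16, 1.36, 0.6897, 0.738 and 0.822 FPKM from 0.5 to 20 µM. They fell by 2.34 ± 0.47 (adjusted p = 0.0138) and 2.77 ± 0.53 (adjusted p = 0.013), most of it between 0.5 and 2 µM. CDK7, the kinase of the general factor TFIIH, had 26.2 FPKM in DMSO and 18.2, 7.77, 3.13, 2.54 and 2.73 FPKM at the 5 doses in turn and fell by 3.24 ± 0.39 (adjusted p = 0.0105). Its cyclin-kinase assembly factor MNAT1, which spans 235 kb, had 51.2 FPKM in DMSO and 10.8, 7.31, 11.9, 15.5 and 13.8 FPKM over the rising doses and was lower in the dose average by 2.06 ± 0.36 (adjusted p = 0.0283). Of 28 RNA polymerase II subunit and general factor genes, 4 rose and 8 fell over the trend, shares near the 17.9% and 25.8% of all genes, and 9 rose and 5 fell with median centring. POLR2A, the catalytic subunit of RNA polymerase II, had 13.6 FPKM in DMSO and 45.1, 35.3, 25.2, 21.3 and 22.9 FPKM from 0.5 to 20 µM. Every CPT library was above DMSO, with the highest at 0.5 µM, and the level fell by 1.09 ± 0.16 (adjusted p = 0.0109) with further dose.

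Splicing regulators took more than 1 course over the doses. Of 15 SR protein and CLK kinase genes, 8 fell among the CPT libraries and 0 rose, against 27.3% and 21.1% of all genes. With median centring 3 fell and 1 rose. SRSF6 had 39.5 FPKM in DMSO and 81.8, 61.7, 28.4, 22.1 and 21.8 FPKM at the 5 doses in turn and fell by 2.12 ± 0.28 (adjusted p = 0.0109), and SRSF3, with 78.2 FPKM in DMSO and 71.3, 30.4, 21.3, 21.4 and 20.6 FPKM over the rising doses, fell by 1.75 ± 0.33 (adjusted p = 0.0135). SRSF2, with 115 FPKM in DMSO and 182, 187, 179, 181 and 175 FPKM from 0.5 to 20 µM, and SRSF5, with 43.5 FPKM in DMSO and 81.3, 128, 106, 91.8 and 79.7 FPKM at the 5 doses in turn, were above DMSO at all doses, by 0.64 ± 0.09 (adjusted p = 0.0207) and 1.12 ± 0.27 (adjusted p = 0.0467). Of 16 nuclear RNA decay genes, 10 fell among the CPT libraries and 0 rose, against 27.3% and 21.1% of all genes. RBM7, the adaptor that guides the exosome to promoter upstream transcripts, had 12.8 FPKM in DMSO and 13.1, 8.21, 3.55, 2.65 and 2.83 FPKM over the rising doses and fell by 2.13 ± 0.29 (adjusted p = 0.0109), and the exosome subunit genes EXOSC3 and EXOSC9 fell by 1.84 ± 0.37 (adjusted p = 0.0152) and 1.72 ± 0.23 (adjusted p = 0.0109). Of 20 cleavage and polyadenylation factor genes, 9 fell over the trend from DMSO and 2 rose, against 25.8% and 17.9% of all genes. The list median was -0.61, against -0.14 over all genes. Falling genes still outnumbered rising ones after median centring (7 to 4) and after quantile normalization (8 to 3). In the dose average 2 were lower and 1 higher than DMSO, against 8.53% and 5.11% of all genes. CLP1, a kinase in cleavage factor II, had 7.403 FPKM in DMSO and 20.1, 32.5, 32.9, 30.9 and 30.8 FPKM from 0.5 to 20 µM. It was higher in the dose average by 1.84 ± 0.28 (adjusted p = 0.022). PCF11, the partner of CLP1, had 4.74 FPKM in DMSO and 1.395, 1.93, 1.84, 1.91 and 1.96 FPKM at the 5 doses in turn. Its dose average was lower by 1.04 ± 0.18 (adjusted p = 0.0275). The calls of PCF11 under both other scalings and of SRSF2 under quantile normalization were lost.

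Several replication genes peaked at 0.5 µM. Of 33 G1/S and replication genes, 3 rose and 12 fell among the CPT libraries, against 21.1% and 27.3% of all genes. In the dose average 5 were higher and 3 lower than DMSO, against 5.11% and 8.53% of all genes. Under median centring 10 rose and 8 fell among the CPT libraries. CCNE2, a cyclin that starts S phase, had 13.5 FPKM in DMSO and 31.2, 19.8, 7.82, 5.46 and 5.04 FPKM over the rising doses and fell by 2.68 ± 0.29 (adjusted p = 0.0109). PCNA, the sliding clamp, had 99.6 FPKM in DMSO and 218, 213, 136, 109.6 and 102 FPKM from 0.5 to 20 µM and fell by 1.24 ± 0.20 (adjusted p = 0.0111), so that it was back near DMSO at 20 µM. The licensing factor CDC6 had 44.5 FPKM in DMSO and 62.4, 45.3, 27.3, 20.95 and 19.7 FPKM at the 5 doses in turn and fell by 1.77 ± 0.17 (adjusted p = 0.0109), and MCM10 fell by 2.05 ± 0.24 (adjusted p = 0.0109). E2F1, the transcription factor that drives these genes, was higher in the dose average by 0.97 ± 0.21 (adjusted p = 0.0403) and CCNE1 by 0.91 ± 0.20 (adjusted p = 0.0403), calls lost with median centring for E2F1 and with quantile normalization for CCNE1. Long members differed: POLA1, the polymerase that primes replication, spans 303 kb and had 9.56 FPKM in DMSO and 3.36, 6.27, 7.68, 8.04 and 7.82 FPKM over the rising doses, and CDK6, which spans 232 kb, had 28.4 FPKM in DMSO and 7.502, 6.404, 10.1, 13.1 and 14.4 FPKM from 0.5 to 20 µM. Both were lowest at 0.5 or 2 µM, and both rose among the CPT libraries, by 1.04 ± 0.23 (adjusted p = 0.0192) and 1.02 ± 0.27 (adjusted p = 0.0286).

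Of 25 G2/M genes, 19 fell over the trend and 1 rose, against 25.8% and 17.9% of all genes, with a median of -1.58. Median centring gave 15 falling and 3 rising, and quantile normalization 16 and 0. In the dose average 8 were lower and 0 higher, against 8.53% and 5.11% of all genes. PLK1, a mitotic kinase, had 39.4 FPKM in DMSO and 13.6, 11.6, 12.05, 10.7 and 10.8 FPKM at the 5 doses in turn and was lower in the dose average by 1.67 ± 0.17 (adjusted p = 0.0108). CCNA2, which encodes cyclin A2, had 42.8 FPKM in DMSO and 30.4, 17.8, 10.7, 9.404 and 10.8 FPKM over the rising doses and fell over the trend by 2.14 ± 0.31 (adjusted p = 0.0105), and TTK, a kinase of the spindle checkpoint, had 14.8 FPKM in DMSO and 6.81, 2.26, 0.993, 0.893 and 0.986 FPKM from 0.5 to 20 µM and fell by 3.12 ± 0.50 (adjusted p = 0.0106). CDC20, the activator of the anaphase-promoting complex, had 103 FPKM in DMSO and 62.9, 66.9, 64.3, 66.1 and 65.4 FPKM at the 5 doses in turn, lower at each dose by a similar amount, and was lower in the dose average by 0.66 ± 0.09 (adjusted p = 0.0202). BIRC5, which encodes survivin, was the member that rose, by 0.57 ± 0.15 (adjusted p = 0.0243), and UBE2C and PTTG1 passed neither test against DMSO. The calls of CDC20 with median centring and of BIRC5 with quantile normalization were lost. Replication-dependent histone genes have mRNAs that mostly lack a poly(A) tail. Of 9 tested, 5 rose and 0 fell among the CPT libraries, against 21.1% and 27.3% of all genes. HIST1H2AC had 26.2 FPKM in DMSO and 4.67, 8.26, 10.9, 9.54 and 10.3 FPKM over the rising doses, with its lowest value at 0.5 µM, and rose by 0.97 ± 0.25 (adjusted p = 0.0272). The share of cells in each phase was not measured.

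Ribosomal protein genes depend on scaling. Of 73 tested, 65 rose and 0 fell over the trend as deposited, against 17.9% and 25.8% of all genes, with a median of 0.63. Median centring gave 71 rising and 0 falling, with a median of 1.08, while quantile normalization gave 6 rising and 5 falling, with a median of 0.04. Genes of the integrated stress response were higher in the dose average in 6 of 14 cases and lower in 0. Over all genes these shares were 5.11% and 8.53%. DDIT4, an inhibitor of mTORC1, had 8.32 FPKM in DMSO and 26.7, 38.7, 32.01, 27.8 and 34.8 FPKM from 0.5 to 20 µM and was higher by 1.81 ± 0.22 (adjusted p = 0.0141), and CEBPB, a leucine zipper factor, by 1.33 ± 0.29 (adjusted p = 0.0383), while DDIT3, which encodes CHOP, had 3.7999 FPKM in DMSO and 3.88, 4.39, 4.64, 4.02 and 3.72 FPKM at the 5 doses in turn and passed none of the 3 dose tests. Of the BCL2 family, MCL1, a short-lived survival protein, had 46.4 FPKM in DMSO and 84.3, 76.3, 50.2, 44.6 and 42.5 FPKM over the rising doses and fell by 1.1 ± 0.16 (adjusted p = 0.0109) among the CPT libraries, and BCL2L1, which encodes BCL-XL, had 33.98 FPKM in DMSO and 29.3, 16.5, 11.9, 11.2 and 11.3 FPKM from 0.5 to 20 µM and fell over the trend by 1.7 ± 0.25 (adjusted p = 0.0105). BIK, a BH3-only killer, had 0.214 FPKM in DMSO and 1.44, 2.55, 3.44, 3.75 and 4.79 FPKM at the 5 doses in turn and rose by 2.05 ± 0.31 (adjusted p = 0.0105), and BCL2L11, which encodes BIM, was higher in the dose average by 1.17 ± 0.21 (adjusted p = 0.0283). Median log2 ratios of cholesterol synthesis genes lay between -0.04 and 0.16 over the doses, those of heat shock genes between 0.06 and 0.20, and those of NRF2 targets between 0.09 and 0.27. Of 11 circadian clock genes, 3 were higher and 1 lower in the dose average, against 5.11% and 8.53% of all genes. The clock repressor PER1, with 2.79 FPKM in DMSO and 6.73, 8.62, 8.73, 8.01 and 8.25 FPKM over the rising doses, was higher in the dose average by 1.26 ± 0.20 (adjusted p = 0.024), while PER3 and CRY1 fell over the trend by 1.68 ± 0.40 (adjusted p = 0.0199) and 1.82 ± 0.44 (adjusted p = 0.0205).

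**Figure D5:**
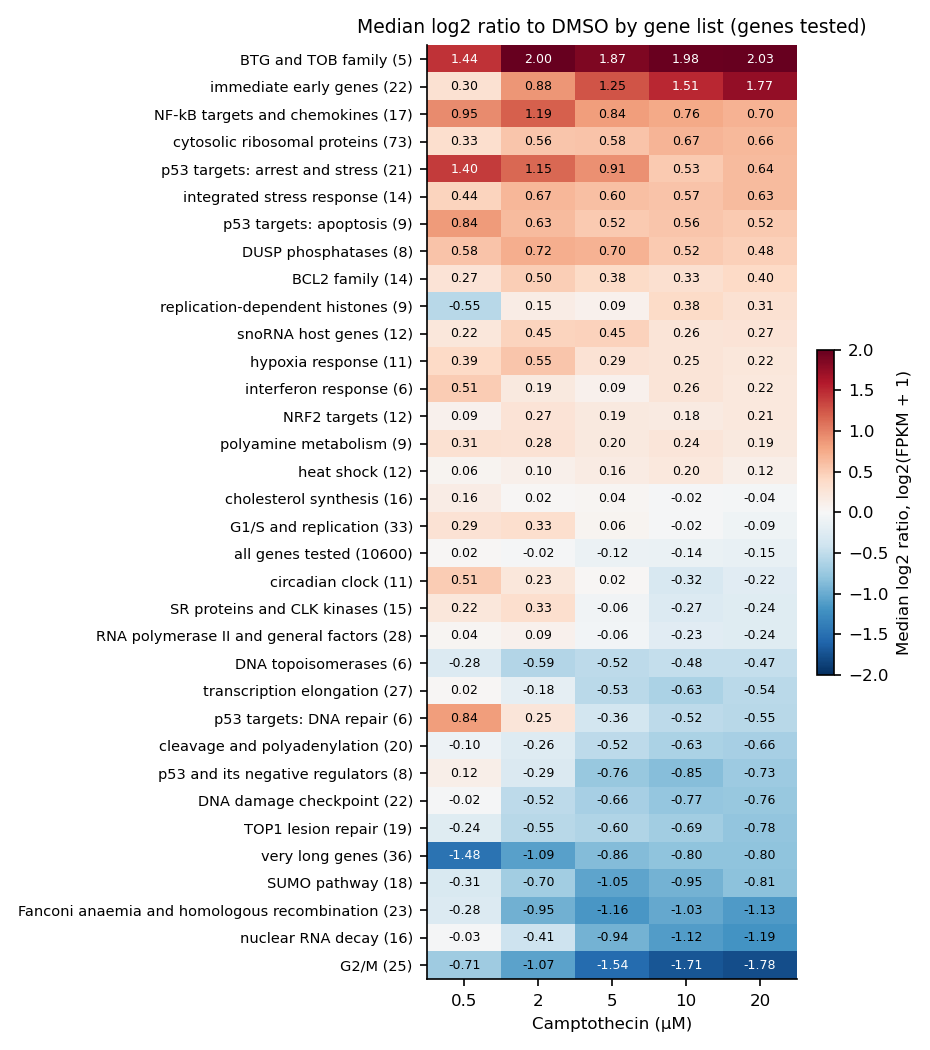
Median log2 ratio to DMSO, log2(FPKM + 1), over the tested genes of each list (number in parentheses) at each CPT dose, red above and blue below DMSO. BTG and TOB family and immediate early genes are highest at 20 µM and G2/M genes lowest (-1.78), and the very long genes are lowest at 0.5 µM (-1.48). The row of all genes tested gives the background.

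Among genes outside the lists, the rule for naming gave CCL4, a chemokine, with 0.5902 FPKM in DMSO and 11.9, 17.4, 16.1, 12.2 and 8.44 FPKM from 0.5 to 20 µM, and GPR3, a receptor that raises cyclic AMP, with 1.75 FPKM in DMSO and 7.49, 18.4, 24.2, 24.3 and 24.4 FPKM at the 5 doses in turn, both higher in the dose average, by 3.12 ± 0.37 (adjusted p = 0.0139) and 2.81 ± 0.62 (adjusted p = 0.0401). TNFSF9, the ligand of a costimulatory receptor on T cells, had 1.14 FPKM in DMSO and 7.31, 10.99, 14.9, 15.8 and 19.7 FPKM over the rising doses and was higher by 2.72 ± 0.47 (adjusted p = 0.0283). SHISA2, an antagonist of Wnt and FGF receptors, had 0.401 FPKM in DMSO and 5.88, 14.3, 18.5, 21.2 and 25.2 FPKM from 0.5 to 20 µM and was higher by 3.55 ± 0.69 (adjusted p = 0.0322), and the read-through gene NME1-NME2, whose reads cannot be told from those of its parts, was higher by 3.12 ± 0.46 (adjusted p = 0.021). NPPC, the precursor of C-type natriuretic peptide, rose among the CPT libraries by 2.86 ± 0.19 (adjusted p = 0.0109), and IER5L by 2.44 ± 0.19 (adjusted p = 0.0109). ANKRD30BL and LINC00273 rose most among the CPT libraries, by 4.37 ± 0.29 (adjusted p = 0.0109) and 4.26 ± 0.18 (adjusted p = 0.0104), but 49.8% of the 30-base words of ANKRD30BL transcripts also occur in transcripts of other genes. On the falling side, the tetraspanin gene TSPAN5 had 38.6 FPKM in DMSO and 6.69, 1.85, 2.12, 2.58 and 2.796 FPKM at the 5 doses in turn, the RNA helicase gene DDX10 had 17.1 FPKM in DMSO and 2.89, 0.663, 0.617, 0.576 and 0.633 FPKM over the rising doses, and TGFB2, a transforming growth factor, had 54.5 FPKM in DMSO and 9.79, 4.52, 4.67, 5.59 and 6.73 FPKM from 0.5 to 20 µM. All 3 were lower in the dose average, by 3.34 ± 0.53 (adjusted p = 0.0246), 3.23 ± 0.52 (adjusted p = 0.0249) and 2.98 ± 0.38 (adjusted p = 0.0162). MSH6, which recognises mismatches, and FAM111B, with 17.2 FPKM in DMSO and 35.6, 15.2, 4.44, 3.73 and 4.07 FPKM at the 5 doses in turn, highest at 0.5 µM, fell among the CPT libraries by 2.9 ± 0.51 (adjusted p = 0.0124) and 3.18 ± 0.47 (adjusted p = 0.0109). GOLPH3, a Golgi protein, fell by 2.73 ± 0.39 (adjusted p = 0.0109), and NDC80, which ties kinetochores to microtubules, fell over the trend by 3.19 ± 0.64 (adjusted p = 0.014). SNORA84, SNORA4 and SNORA63 were lower in the dose average, and MIR941-3, SNORA70, RMRP and KRTAP20-4 fell among the CPT libraries, but FPKM of so short RNAs is unsteady and their values are not given.

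CPT was last set against T4 and T5 at the same doses, which leaves the DMSO library out. Averaged over the 5 doses, 4666 genes were higher and 3282 lower with CPT than with the mean of T4 and T5 (44.0% and 31.0%), and median centring turned this split to 3255 and 4179, quantile normalization to 3671 and 4015, so only differences well beyond such shifts are described. Of the 21 p53 arrest and stress targets, 15 were higher and 1 lower with CPT, with a median of 0.99 against 0.10 over all genes, and all 9 tested apoptosis targets were higher. CDKN1A was higher by 1.53 ± 0.14 (adjusted p = 3.26e-06), BTG2 by 2.47 ± 0.07 (adjusted p = 1.41e-08) and PHLDA3, which blocks AKT at the membrane, by 2.18 ± 0.07 (adjusted p = 1.43e-08). Very long genes stood apart in the other direction, with 35 of 36 lower and 1 higher with CPT, a median of -0.97, and 35 lower with either other scaling. Of all protein-coding genes over 400 kb, 83.98% were lower with CPT, and of those under 5 kb 7.56% were. Immediate early genes were lower with CPT than with T4 and T5 in 14 of 22 cases and higher in 6. EGR1 was lower by 1.99 ± 0.23 (adjusted p = 1.49e-05), FOS by 1.75 ± 0.24 (adjusted p = 5.98e-05) and ARC by 1.38 ± 0.25 (adjusted p = 0.00043), while FOSL1, another FOS relative, was higher by 2.65 ± 0.24 (adjusted p = 3.16e-06) and FOSB by 0.81 ± 0.08 (adjusted p = 5.68e-06).

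S1PR3, a receptor for sphingosine 1-phosphate, had 16.8 FPKM with CPT, against 0.938 FPKM with T4 and 0.5903 FPKM with T5, at 20 µM and 13.2 FPKM with CPT, against 1.93 FPKM with T4 and 1.23 FPKM with T5, at 0.5 µM. ORAI1, the pore of store-operated calcium entry, had 12.1 FPKM with CPT, against 0.196 FPKM with T4 and 0.325 FPKM with T5, at 20 µM. TMEM177, a mitochondrial membrane protein, had 33.6 FPKM with CPT, against 0.558 FPKM with T4 and 0.803 FPKM with T5, at 20 µM, and TOB2 had 48.4 FPKM with CPT, against 1.69 FPKM with T4 and 2.07 FPKM with T5, at 20 µM. CPT was above both other compounds in each of these pairs of values, with mean differences of 3.16 ± 0.11 (adjusted p = 3.02e-08), 2.98 ± 0.16 (adjusted p = 1.66e-07), 3.1 ± 0.34 (adjusted p = 1.02e-05) and 2.67 ± 0.33 (adjusted p = 2.75e-05). EXT1 had 6.88 FPKM with CPT, against 72.3 FPKM with T4 and 71.01 FPKM with T5, at 0.5 µM, and GPHN had 0.659 FPKM with CPT, against 19.7 FPKM with T4 and 15.5 FPKM with T5, at 0.5 µM. Both were lower with CPT at all 5 doses, by 2.88 ± 0.18 (adjusted p = 3.36e-07) and 2.36 ± 0.20 (adjusted p = 2.04e-06). NUP35, a nuclear pore protein that spans 44.2 kb, had 2.69 FPKM with CPT, against 30.4 FPKM with T4 and 25.3 FPKM with T5, at 2 µM and was lower with CPT by 2.3 ± 0.16 (adjusted p = 6.48e-07). Leaving out any 1 of the 15 treated libraries kept the counts between 4299 and 4733 higher and between 3104 and 3306 lower genes.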

How the data were processed

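Total RNA of U2OS cells was made into libraries whose titles label them mRNA, and these were sequenced on an Illumina instrument. The authors deposited 1 matrix of FPKM per gene for 16 libraries. GSNAP, Cufflinks, hg19 and GRCh37 are named, without roles, in the submitters' processing notes. How these FPKM were made is not stated any further, and the deposited values hold no counts, so depth is known only relative to DMSO, from the spacing of values under 0.2 FPKM.

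From the matrix, 2 inner header lines, 1 incomplete line and 220 identical repeats were dropped. Genes with a mean of at least 1 FPKM over 16 libraries were tested on log2(FPKM + 1), which understates changes of low genes, with limma 3.58.1 (eBayes with a mean-variance trend, two-sided, Benjamini-Hochberg at 0.05). The dose average assumes that the lone DMSO library varies like the CPT libraries. Its spread includes the differences between CPT doses, so it favours genes that are flat across them. CPT minus the mean of T4 and T5 was fitted with dose as a block. The scripts were tested on simulated data. Alternatives were another pseudocount, other filters on low values, 2 scalings, 2 dose scales, a pooled spread and leaving out each library.

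Text names TOP1, members of 35 gene lists, and per test the genes with the largest change past the threshold, namely 12 rising and 12 falling for the trend from DMSO and for the dose average, 8 and 8 among CPT libraries and 6 and 6 against T4 and T5, the first, second and last with 1 direction at all 5 doses. The doses, lists and this rule were chosen with earlier results of these data known, and the BTG and TOB list after its values were seen. Gene spans were to be used only from a reference of the files' build. GENCODE 29 on GRCh38 was used instead, a choice made after seeing the data, as a property of each gene found by symbol, with no coordinate carried between builds, and promoter sequences are those of RefSeq on GRCh38.p14. A few members of the lists are not reported here.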

Additional observations from a re-analysis of the deposited data

Results flagged for a closer look

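CPT and the other compounds differed most, in the test of CPT minus the mean of T4 and T5 over matched doses, in 12 genes named by rule. The rule itself required 1 direction at all 5 doses. S1PR3, the sphingosine 1-phosphate receptor gene, was higher with CPT by 3.16 ± 0.11 (adjusted p = 3.02e-08), and TMEM177, a mitochondrial protein gene, by 3.1 ± 0.34 (adjusted p = 1.02e-05). ORAI1, the calcium channel gene, was higher by 2.98 ± 0.16 (adjusted p = 1.66e-07), FAM220A by 2.95 ± 0.20 (adjusted p = 4.55e-07) and FAM46C, a poly(A) polymerase gene, by 2.84 ± 0.27 (adjusted p = 4.17e-06). TOB2, the deadenylase adaptor gene, was higher by 2.67 ± 0.33 (adjusted p = 2.75e-05).

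On the other side, the keratin-associated gene KRTAP2-3 had a difference of -3.01 ± 0.25 (adjusted p = 1.82e-06), with 10.95 FPKM with CPT, against 100.2 FPKM with T4 and 157 FPKM with T5, at 20 µM. EXT1 differed by -2.88 ± 0.18 (adjusted p = 3.36e-07), EID3 by -2.43 ± 0.23 (adjusted p = 4.26e-06) and GPHN by -2.36 ± 0.20 (adjusted p = 2.04e-06). NUP35 differed by -2.3 ± 0.16 (adjusted p = 6.48e-07). RPPH1, the RNA subunit of RNase P, differed by -2.38 ± 0.21 (adjusted p = 2.24e-06), but it is a short RNA whose FPKM is uncertain. KRTAP2-3 belongs to a multigene family, and how the authors' counting split its reads is not given in the sources used here.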

How the results depend on the processing

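No paired analysis was possible because each condition has 1 library and the labels give no replicate numbers; the dose block against T4 and T5 matches doses, not replicates. Over the trend from DMSO, leaving out 1 library gave 1 to 2005 rising and 0 to 2920 falling genes; the lowest counts came without the 10 µM library. Without the 0.5 µM library 1005 rose and 1535 fell, and without the 5 µM library 1121 rose. With the spread pooled over 16 libraries 3263 rose, and 2991 to 3490 (3405 without 0.5, 3289 without 2 and 3037 without 5 µM) when a library was also left out. With dose taken as linear, limma called 0 rising and 0 falling, with 411 and 1150 at an unadjusted p under 0.05, and median centring gave 3572 and 1643. With a mean of at least 5 FPKM, which leaves fewer genes, 1335 fell. Among the CPT libraries, leaving out 1 gave 1 to 2408 rising and 0 to 3207 falling genes (627 and 984 without 0.5 µM, 1378 rising without 5 µM), the linear scale 0 and 0 (399 and 951 unadjusted), median centring 4111 rising and the filter at 5 FPKM 1474 falling. The dose average gave 4 to 2938 higher and 38 to 3582 lower genes with 1 CPT library left out (55 and 206 without 2, 26 and 95 without 10, 28 and 94 without 20 µM), 238 and 253 at 5 FPKM, 1119 higher with quantile normalization, 447 lower with median centring and 585 lower with a pseudocount of 0.1; without DMSO it has no value. Against T4 and T5, the filter at 5 FPKM gave 2719 higher and 1975 lower. The cause of these moves was not tested. No filter, the rank of dose and T4 or T5 alone kept every such count within 1.5 times. Of 2867 values of single genes under alternatives, 2281 stayed called in the same direction or stayed uncalled. A further 584 lost the call, 2 gained it and 0 reversed, where values uncalled in both fits were not checked for direction. Relative depth limits low genes most, and single libraries per dose give no replicate spread.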

Other observations

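The SUMO pathway attaches a small protein tag to trapped topoisomerases and repair proteins. Of 18 tested genes of it, 9 fell and 1 rose over the trend from DMSO, against 25.8% and 17.9% of all genes, with a median of -0.93. Median centring gave 7 falling and 4 rising and quantile normalization 7 and 1. PIAS1, a SUMO ligase, had 16.98 FPKM in DMSO and 9.78, 2.84, 0.848, 0.934 and 1.22 FPKM over the rising doses and fell by 3.39 ± 0.58 (adjusted p = 0.0111). SENP6, which trims SUMO chains, had 11.5 FPKM in DMSO and 5.93, 2.52, 2.26, 2.52 and 2.33 FPKM from 0.5 to 20 µM and fell by 1.81 ± 0.45 (adjusted p = 0.0218).

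Of hypoxia response genes, 2 of 11 were higher and 1 lower than DMSO in the dose average, against 5.11% and 8.53% of all genes. VEGFA, the vascular growth factor, had 7.67 FPKM in DMSO and 12.6, 15.9, 14.4, 13.9 and 14.3 FPKM at the 5 doses in turn, and was higher by 0.81 ± 0.16 (adjusted p = 0.0337). Of 6 tested interferon response genes, 2 rose and 1 fell over the trend, against 17.9% and 25.8% of all genes. Of 12 tested snoRNA host genes, whose introns carry small nucleolar RNAs, 4 rose and 1 fell, against the same 17.9% and 25.8%. Median centring gave 6 rising and 0 falling. GAS5 was the member that fell, by 1.01 ± 0.16 (adjusted p = 0.0105), with 40.2 FPKM in DMSO and 42.9, 37.3, 28.9, 24.4 and 21.2 FPKM over the rising doses. The call of GAS5 was lost with median centring, at -0.56 (adjusted p = 0.0527). HSPA1A, HSPA1B, TNF, IER3, MDC1, NELFE, GTF2H4 and SRSF10 were listed at 0 in all 6 libraries, and no level is given for them.

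Of the 904 genes lower than DMSO in the dose average, 83 rose among the CPT libraries, and of the 542 higher genes, 7 fell. Over all genes tested, 21.1% rose and 27.3% fell among the CPT libraries. The dose average takes its spread from differences among the CPT libraries, so genes that change with dose are less readily called in it. Low overlaps are thus built into the 2 tests, and no conclusion about the genes is drawn from them. The 66 genes that were above DMSO at 0.5 µM and below it at 20 µM had a median span of 29.3 kb over their protein-coding members, and the 197 with a low at 0.5 µM and a partial return had a median span of 299.8 kb, against 32.1 kb over all tested protein-coding genes. The 145 genes at least 2-fold higher at all doses had a median span of 8.36 kb, and the 457 at least 2-fold lower at all doses 182 kb.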
